A study of Drosophila melanogaster with 4 samples.

Results

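The abdominal pigmentation genes bab1, bab2, y and bi (also called omb) were examined for peaks of Abd-B-GFP, a GFP-tagged form of the posterior Hox factor Abd-B, in Drosophila melanogaster larvae. Members were chosen by position: a peak belonged to a locus when its midpoint lay in a fixed window around the gene on FlyBase release 5. The windows were 3L from 1030000 to 1180000 for the neighbouring genes bab1 and bab2 (150 kb), X from 240000 to 262000 for y (22 kb) and X from 4240000 to 4335000 for bi (95 kb). Together the 3 windows held 8 of the 2949 peaks of the list: 4 at bab1 and bab2, 0 at y and 4 at bi.

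The series comprised 2 libraries of chromatin immunoprecipitated with a rabbit anti-GFP antibody and 2 libraries of input DNA, all from wandering larvae of the L3 stage, of unknown sex. All 4 carried the strain label Abd-B-GFP and the genotype w; PBac{y[+]-attP-3B}VK00037. Their transgene was the genomic coding region of Abd-B in which GFP took the place of the stop codon. The docking construct in that genotype is itself marked with y+, so the strain carries a copy of y outside its own locus, and reads from the copies cannot be told apart. The culture protocol names a different stock, y; bw cn sp. The peak list was made for the whole series, with 1 score per peak from the authors' peak caller and no value per library. Values below thus come without an error between replicates and without a known depth, and no difference between loci was tested. Whole larvae mix many cell types, so fewer bound cells and weaker binding per cell cannot be told apart.

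Abd-B specifies the posterior abdominal segments, and in adult males it is needed for their dark pigmentation. bab1 and bab2 encode related BTB-domain transcription factors that repress this pigmentation and are regulated in the abdomen by Abd-B and the sex-determination factor Dsx. y encodes Yellow, a secreted protein needed for black melanin, and is a known direct target of Abd-B in the male abdomen. bi encodes a T-box transcription factor that patterns the dorsal abdomen, the wing and the optic lobe. The adult abdominal epidermis forms in the pupa from histoblasts, small nests of cells that the larva carries, so larval chromatin comes mostly from other tissues.

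**Figure D1:**
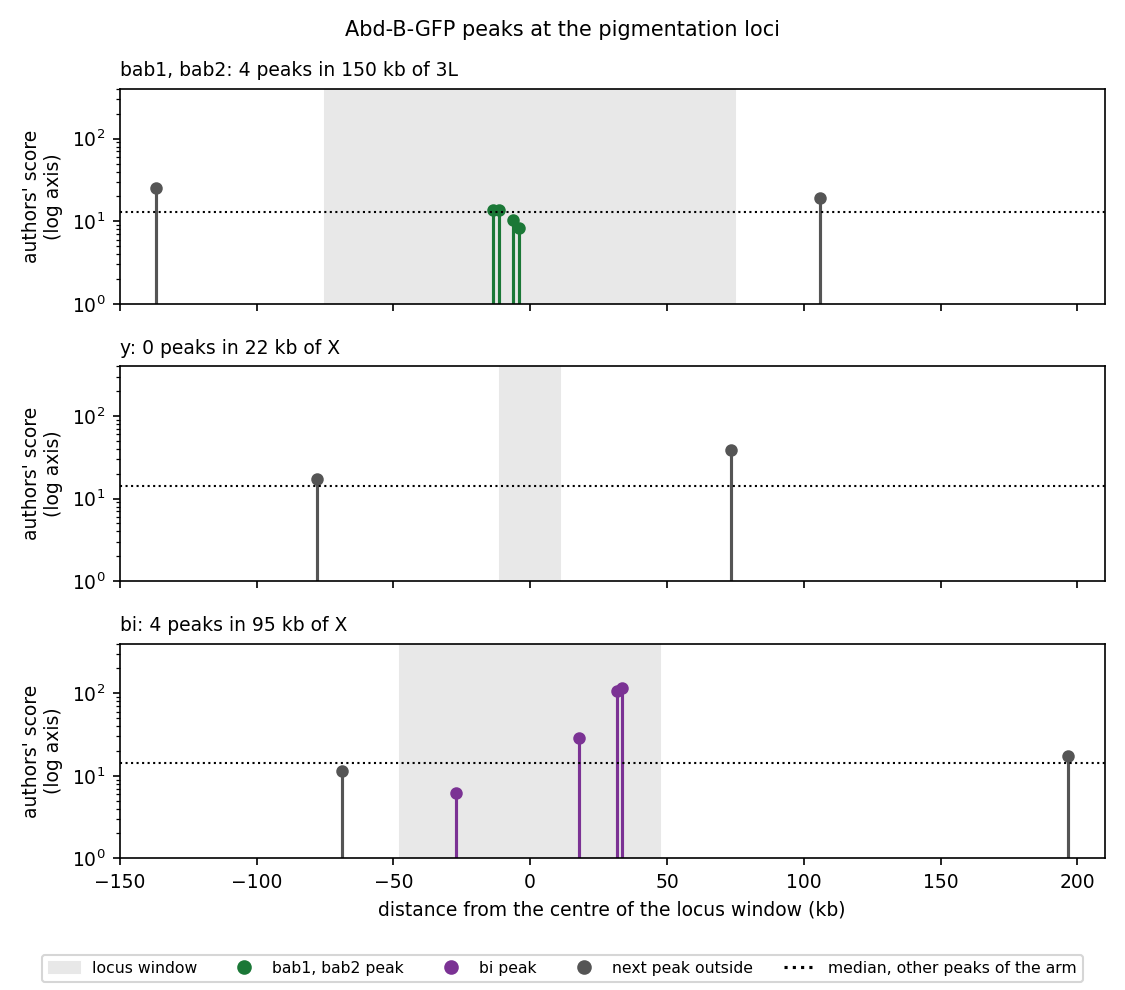
Peaks at the pigmentation loci. The x axis gives the distance of each peak from the centre of its locus window in kb, the y axis the authors' score on a log axis, and the shaded band the window. Coloured points are peaks in the window, grey points the next peak on either side, and the dotted line the median score of the other peaks of the arm. The bab1 and bab2 peaks crowd together at or below a score of 13.8, the y window is empty, and 2 of the bi peaks rise above 100.

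The highest scores at these genes lay at bi. Its window held 4 peaks whose scores ran from 6.2 to 116.82. The lowest lay from 4260331 to 4260556, 226 bp wide, and its score of 6.2 was the lowest on X and shared the lowest value of the whole list with 1 other peak. A peak from 4305321 to 4305724, 404 bp wide, scored 28.63. Scores then climbed to 105.31 in a peak from 4318956 to 4319532, 577 bp wide, and to 116.82 in a peak from 4320644 to 4321221, 578 bp wide. The weak peak therefore lies left of the centre of the window and the others to the right of it.

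The top 2 peaks of bi formed a close pair, with a gap of 1.11 kb and a span of 2.27 kb. They ranked 4 and 5 among the 480 peaks of X, and 18 and 22 in the whole list. The median score of the X peaks outside the window was 14.2. Only 5 peaks of X scored above 100, and 2 of those were the bi pair. The other 3, starting at 8189275, 16041559 and 10709601, had scores of 145.72, 127.18 and 122.46. Each also had a neighbour within 1 kb, at 0.810, 0.457 and 0.933 kb, but none of these neighbours scored above 100.

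Ranked by the lower score of each pair, the bi pair came first of the 866 neighbouring pairs with a gap up to 5 kb on the 6 assembled arms (X, 4 and both arms of chromosomes 2 and 3). It was the only pair there in which both peaks scored above 100, and the lower score of the pair ranked next was 71.12. On X, with 163 such pairs, the next had 65.63. This ranking was chosen after the scores had been seen and describes the list. For their width these peaks scored high. Of the 395 peaks of X no wider than 578 bp, with a median score of 12.9, 3 scored at least 105.31, the bi pair among them. The 395 reach down to 200 bp, so their median is not that of peaks of like width. Both limits were taken from the pair itself, and this comparison too describes the list.

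In number, bi stood apart less than in score. Its 4 peaks came to 4.21 per 100 kb, against 2.14 over X, where an equal-sized window at that density would hold 2.03. Equal-sized windows were laid end to end along X, and those touching the locus were left out. Of the 233 windows of 95 kb, 41 (17.6%) held 4 or more peaks, with a median of 1 and quartiles of 0 and 3. A strongest peak of at least 116.82 occurred in 3 of them (1.29%). Peaks covered 1.88% of the bi window, and 13.3% of the windows had as large a share. Its longest run, counted as neighbouring peaks with gaps up to 5 kb, was the pair itself, and 22.7% of the windows held a run of 2 or more. Among the 103 windows with at least 2 peaks, 53 (51.5%) held one.

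**Figure D2:**
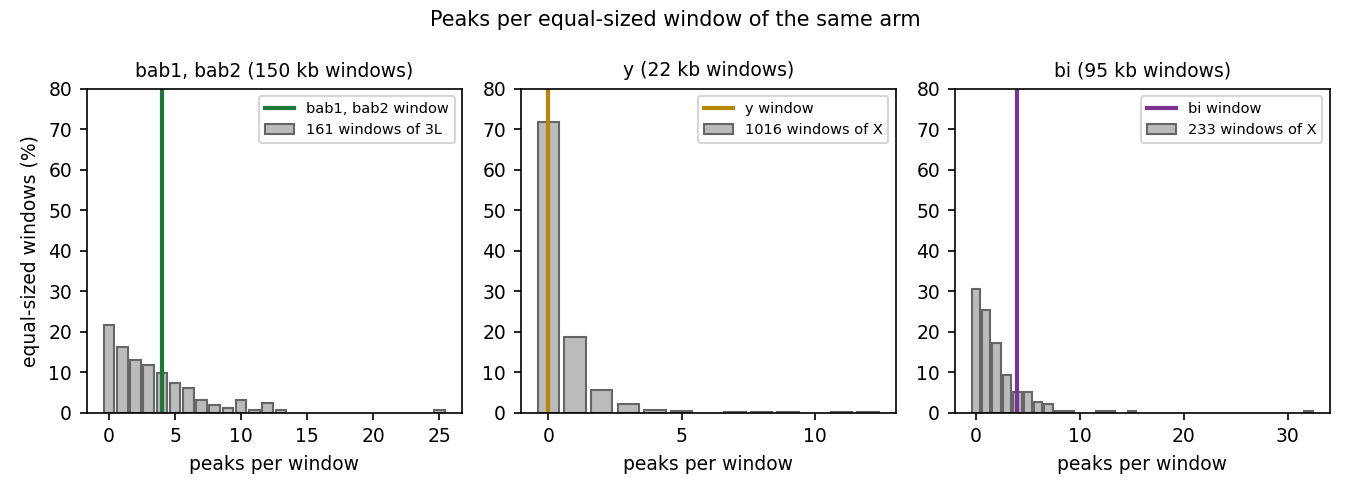
Peaks per window for windows of the same size as each locus. The x axis gives the number of peaks in a window and the y axis the percentage of windows; grey bars are the equal-sized windows of 3L (161 of 150 kb) or X (1016 of 22 kb and 233 of 95 kb), and the coloured line is the locus. At least as many peaks as at the locus occurred in 37.3% of the windows for bab1 and bab2 and in 17.6% for bi, and at y the commonest count is 0.

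Peaks at bab1 and bab2 had scores near or below the middle of the arm and lay close together. The 4 peaks of this window lay from 1091278 to 1101046, within 9.77 kb or 6.51% of the window. The first, from 1091278 to 1091522, was 245 bp wide and scored 13.8. The second, from 1093090 to 1093781, was 692 bp wide and had the same score of 13.8. The third, from 1098633 to 1098832, was 200 bp wide, the smallest width in the list, and scored 10.37. The fourth, from 1100683 to 1101046, was 364 bp wide and scored 8.26. All 4 lay at or below the median score of the list, 14.2, and from left to right no score rose.

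The median score over the 4 peaks of bab1 and bab2 was 12.1, against 13.0 over the other 535 peaks of 3L (quartiles 10.4 and 19.3). Both peaks of score 13.8 ranked 254 of 539 on 3L, the third ranked 403 and the fourth 515. The highest score of the window was matched or passed in 104 of 161 equal-sized windows of 3L (64.6%). The second bab peak was wide for its score: of 38 peaks on 3L at least 692 bp wide, with a median score of 30.6, 4 scored 13.8 or less.

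The number of peaks at bab1 and bab2 was near that of the arm. The window held 2.67 peaks per 100 kb, against 2.20 over 3L, and 3.31 peaks would lie there at the density of the arm. Of the 161 windows, 60 (37.3%) held 4 or more peaks, with a median of 2. Peaks covered 1.0% of the window, and 32.9% of the windows reached that share. They formed 1 run with gaps of 1.57, 4.85 and 1.85 kb, and 9.94% of the windows held a run of 4 or more. Most windows had too few peaks for such a run, and among the 60 with enough, 16 (26.7%) held one. With gaps up to 2 kb in place of 5 kb, the longest run at bab1 and bab2 was 2 peaks, as long or longer in 28.6% of the windows. In the 16 windows with exactly 4 peaks, those peaks spanned a median of 80.7 kb and at least 4.73 kb. Of these 16, 1 had all its peaks within a span as short as that at bab1 and bab2. It was also the only such window among the 60 with 4 or more, but windows with more peaks have more to fit into that span. The comparison of spans was chosen after the positions had been seen.

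**Figure D3:**
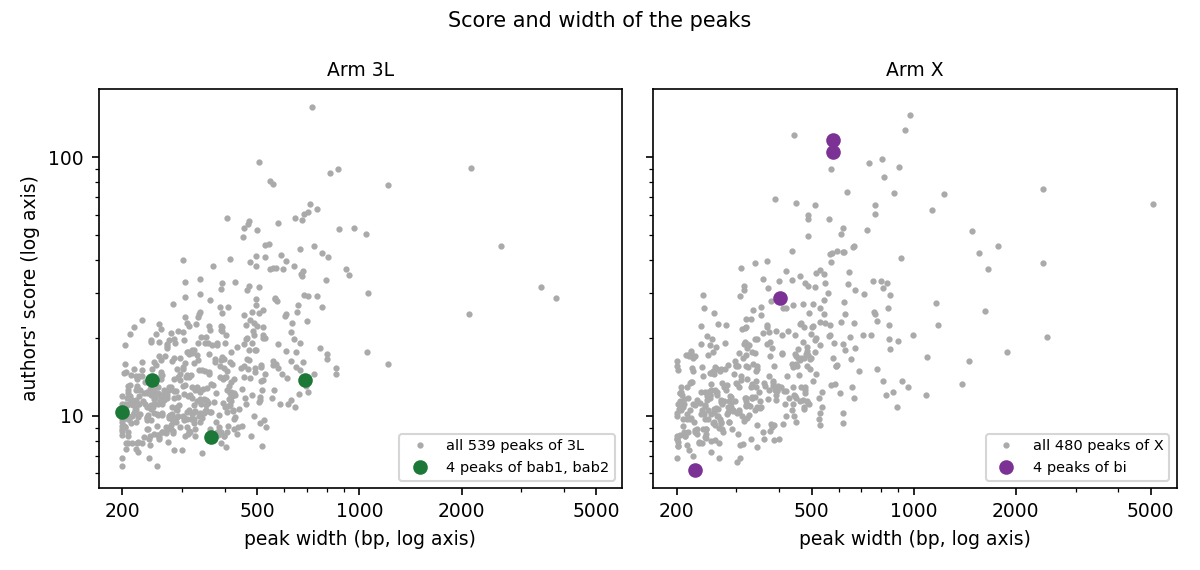
Score against width for the peaks of arms 3L (left, 539 peaks) and X (right, 480 peaks). Both axes are logarithmic, with width in bp and the authors' score; grey points are all peaks of the arm and coloured points those of bab1 and bab2 or of bi. The bi pair, 577 and 578 bp wide, lies near the top of X for that width. The 692 bp peak of bab1 and bab2 lies low, as do some other 3L peaks of like width.

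No peak was listed at y. The closest on the left ran from 173066 to 173386 (321 bp, score 17.22) and the closest on the right from 323267 to 325663 (2397 bp, score 39.19). They lay 66.6 kb to the left and 61.3 kb to the right of the window. An empty window of this size was the rule on X, where 730 of 1016 windows of 22 kb held no peak and 286 (28.1%) held any. At the density of the arm 0.471 peaks would lie in it. The count of 0 at y thus lies within what most of the arm shows, and since the list holds peaks but no signal, y cannot be called unbound.

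Long stretches without peaks bordered the 3 loci, except on the left of bi. The gap that contained y was 149.9 kb long, against a median gap of 13.2 kb on X. The bab peaks were flanked by gaps of 122.7 kb on the left, up to the peak from 968151 to 968543 (score 24.95), and of 109.8 kb on the right, up to the peak from 1210818 to 1211074 (score 19.34). To the right of the bi pair the next peak began only after 162.7 kb, from 4483953 to 4484434 (score 17.34). To the left of bi the gap was 41.4 kb, up to the peak from 4218691 to 4218960 (score 11.51), and 30.5% of the gaps on X were at least as long. Inside the bi window the other gaps were 44.8 and 13.2 kb, so only the pair had another peak within 10 kb, as 60.4% of the X peaks did. All 4 bab peaks had one, as did 62.9% of those on 3L.

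Apart from that on the left of bi, such gaps are a small share of all gaps but fill much of each arm. Gaps of at least 149.9 kb were 7.31% of those on X and made up 43.3% of its extent. Gaps at least as long as that right of the bi pair made up 40.5%. On 3L, gaps of at least 109.8 kb made up 53.6% of the extent. A position taken anywhere on these arms would thus often fall in or beside a gap of this length.

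The peaks could not be placed on exons, introns or promoters, because the gene annotation given here uses release 6 and no conversion was made. In that table bab1 and bab2 are next to each other with no annotated gene in between, flanked by CG9205 and CG13912. The coding gene CG32816 overlaps y, which is flanked by CG43182 and lncRNA:yar, with the proneural gene ac next among coding genes on the side of lncRNA:yar. The noncoding gene lncRNA:CR32773 overlaps bi, which is flanked by lncRNA:CR46499 and CG3556. A peak in a window may therefore lie nearer to such a gene than to the gene for which the window is named. No sequence is shown, since none was at hand for these positions.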

How the data were processed

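The deposited data are 1 peak list, per the file headers a GFF version 3 table on FlyBase release 5 with MACS in its source field. Build BDGP5, MACS2, BWA and CASAVA (versions 1.7.0.2 and 1.7.0.3) stand in the submitters' processing notes. Parameters, the control libraries and any pooling of replicates are not given in the sources used here. Every library title holds the term vMock, while the titles otherwise name the libraries only as ChIP or Input. Each deposited row holds a position and 1 score, whose scale the authors' file does not name; it was used only to describe and rank peaks. The lowest start is 0, so 1 was added to starts.

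Windows came from the fixed rule. Equal-sized windows were laid from base 1 of an arm to the end of its last peak, and those touching the locus were dropped. Counting was tested on simulated data. No test was run, since the list has 1 value per peak and no replicates. Members, windows and measures were chosen with earlier results of these data known. Every peak of a locus is named, with the next outside each edge. Python 3.11.15, numpy 2.4.6, pandas 2.3.3, scipy 1.17.1 and matplotlib 3.10.9 were used. The search of promoters for motifs and the counts at other pigmentation genes were not run, for want of sequences and of a release 5 annotation.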

Additional observations from a re-analysis of the deposited data

How the results depend on the processing

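No paired analysis was possible because the scores are not split by library, so no library could be dropped either. Of 151 alternative values, 115 kept the main one: within 1.5 times for counts of peaks, within the exact 95% binomial interval for shares of windows, and unaltered otherwise. Where values moved, the cause was not tested unless fewer peaks or windows are named. With the 1474 or the 737 highest-scoring peaks alone, bab1 and bab2 held 0 peaks, a longest run of 0 and a covered share of 0%. The best of their peaks rank 1526 in the list, so their scores fixed this in advance. Scores, widths and shares of windows could then not be given for that locus, and the nearest peak lay 61.5 kb from the edge with the 737. In both, bi kept 3 peaks with a median score of 105, a median width of 577 bp, a covered share of 1.64% and the nearest outside peak 131 kb away. The share of X windows with as many peaks as bi was 12.7% and 3.62%, with as long a run 11.8% and 5.43%, and with as much covered 7.89% and 4.07%. The share of X windows with any peak, for y, was 17.5% and 9.16%. Because these cuts select on score, the 3 high-scoring bi peaks had to stay while other X peaks were removed. The lower shares for bi thus restate its scores and do not show its count or run to be rarer. With peaks under 1 kb apart merged, runs as long as those of bab1 and bab2 or of bi occurred in 3.73% and 14.6% of windows. The shortest gaps in these 2 runs, 1.57 and 1.11 kb, lie above 1 kb. Merging could thus shorten runs in other windows but not these, so the lower shares do not show these runs to be rarer. Windows widened by 10 kb on each side gave covered shares of 0.883% at bab1 and bab2 and 1.55% at bi, and any peak in 43.5% of windows for y. Without empty windows, the shares for bab1 and bab2 were 47.6% (count), 82.5% (score) and 42.1% (cover), and for bi 25.3% (count), 32.7% (run) and 19.1% (cover). With gaps up to 2 kb the longest bab run was 2, as in 28.6% of windows. The count of 0 at y and the highest score at bi held in each alternative run for them. None of these alternatives could have changed them. A cut by score adds no peak at y and keeps the top peak of bi, and merging keeps the highest score. The nearest outside peaks, 61.3 kb from the y window and 21.0 kb from that of bi, lie beyond a widening by 10 kb. Such fixed values are among the 115.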

Other observations

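The peak that ends the empty stretch around y was broad. It lay on X from 323267 to 325663, 2397 bp wide, and 99.4% of the X peaks were as narrow or narrower. Its score of 39.19 ranked 43 of 480 on X. It was named as the next peak outside the window, and the remark on its width was made after its values were seen.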
